A study of Homo sapiens with 2 samples.

Results

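Of the 116126 H3K9me3 peaks on chromosomes 1 to 22 except 8 in KBM7 cells, 2767 lay in gene deserts, here meaning farther than 200 kb from every deposited gene interval. This is 2.38% of the peaks (95% exact binomial interval 2.30 to 2.47%, counting error only), and the whole list holds 126965 peaks. A gene that has no row in the table used here would leave a desert longer than it is, so all counts and lengths hold for this table. The members were chosen by position alone, from the peak list and the table of 40237 gene intervals of the same library, on the hg19 build. KBM7 is a near-haploid line of chronic myeloid leukemia, and its chromatin was crosslinked with formaldehyde and precipitated with the antibody ab8898 against H3K9me3. Besides this library the series lists 1 made with IgG, which was not analysed here. Every value therefore describes 1 library with no replicate, and no test between conditions was possible. The gene intervals hold 78512210 reads, a sum that counts reads of overlapping intervals more than once, and the peak list gives positions without heights.

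H3K9me3 is laid down by methyltransferases such as SUV39H1, SUV39H2 and SETDB1 and is bound by HP1 proteins, which compact chromatin. It marks satellite repeats beside centromeres and silenced transposons and gene clusters. Gene deserts are long stretches without known genes, often rich in A and T and placed at the nuclear lamina, and some hold distant enhancers of the developmental genes at their edges.

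Peaks of H3K9me3 were sparser in deserts than in gene intervals. Desert sequence summed to 203.9 Mb, 7.70% of the 2649 Mb between the first and last coordinate of the 21 chromosomes, and fell into 446 deserts. The length and coordinates of a desert run from gene interval to gene interval. Its peaks, cover and density count only the part farther than 200 kb from both. Desert sequence held 13.6 peaks per Mb, whereas the union of the gene intervals (1358 Mb) held 55891 peaks, 41.2 per Mb. The ratio of the densities was 0.330 (95% interval from the peak counts 0.317 to 0.343). Peaks covered 1.38% of desert sequence and 5.71% of gene intervals, a ratio of 0.241. Neighbouring peaks are not independent, so the interval is too narrow for anything beyond counting.

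A large share of desert sequence carried no peak at all over several Mb. On 17 of the 21 chromosomes the longest stretch without a peak was 3.01 to 21.1 Mb long and overlapped 1 of the 17 longest deserts. Of the desert sequence, 92.0 Mb (45.1%) fell in the longest stretch of its chromosome. The hg19 build is known to write centromeres as long runs of unknown bases; no genome sequence was used here, so how much of these stretches could hold reads was not tested. With the longest stretch of each chromosome left out, desert sequence held 24.7 peaks per Mb against 41.2 in gene intervals, a ratio of 0.600, and the covered shares were 2.51% and 5.72%. Leaving out stretches for lack of peaks raises the desert density by construction, so 0.330 and 0.600 are given side by side. Densities by distance and by chromosome below leave these stretches out.

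Peak density was highest a short way outside genes and declined with distance into the deserts. It was 41.2 peaks per Mb inside gene intervals, 53.4 within 10 kb outside them and 59.7 from 10 to 50 kb. From there it was 49.6 from 50 to 100 kb and 39.0 from 100 to 200 kb. Inside the deserts it was 30.3 per Mb from 200 to 300 kb (1758 peaks), 21.6 from 300 to 500 kb (781 peaks) and 12.9 beyond 500 kb (228 peaks). The covered share of sequence followed the same order beyond 10 kb, from 8.36% at 10 to 50 kb to 3.09%, 2.03% and 1.56% in the 3 desert classes. Without sequence within 5 Mb of the longest peak-free stretch of each chromosome, the 3 desert classes held 27.3, 17.4 and 12.7 peaks per Mb, so the decline was present there too. The edge of the definition shows no step in width. The 38 peaks in the last 1500 bp before the limit and the 41 in the first 1500 bp beyond it had the same median width of 900 bp, and the nearest peaks on either side lay 199983 and 200017 bp from a gene interval.

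**Figure D1:**
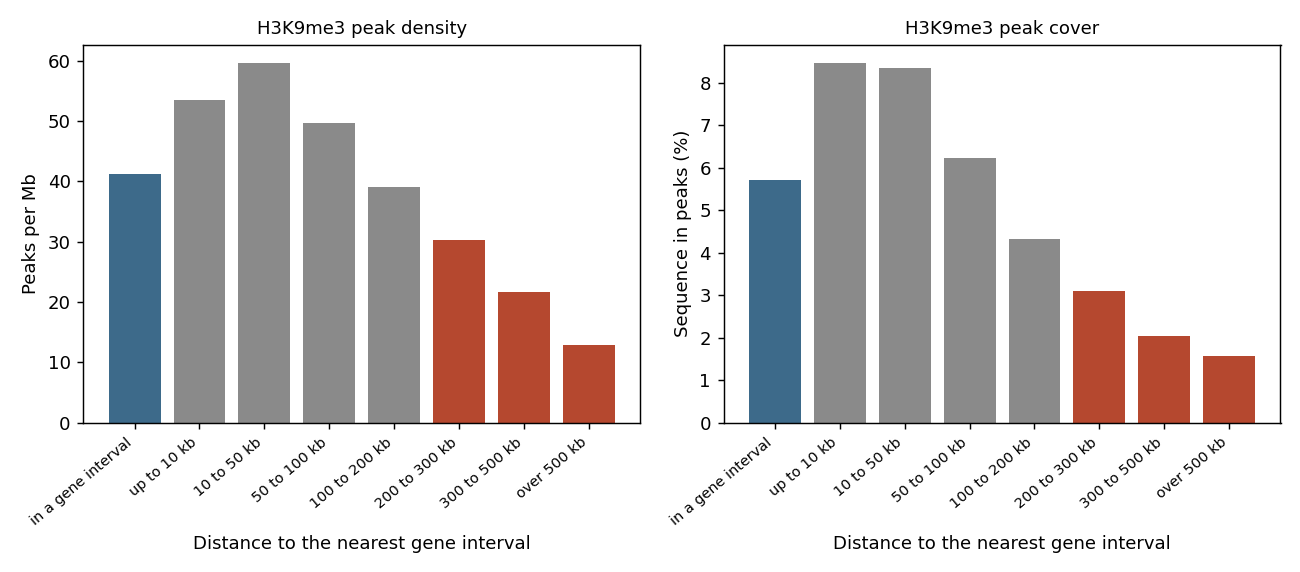
Peaks per Mb (left) and percent of sequence in peaks (right) by distance to the nearest gene interval, without the longest peak-free stretch of each chromosome; blue is inside gene intervals, grey up to 200 kb outside, red the deserts. Density rises from 41.2 in gene intervals to 59.7 at 10 to 50 kb and is 12.9 beyond 500 kb.

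Outside the longest peak-free stretches, most windows of 100 kb in deserts held a peak. Of all 25459 windows outside the longest peak-free stretches, 81.9% held part of a peak. Among the 757 windows that lay wholly in deserts 521 did (68.8%, exact binomial interval 65.4 to 72.1%), and among the 13919 windows with at least 50% of their bases in gene intervals 11098 did (79.7%, 79.1 to 80.4%). The desert share was thus below that of all these windows. Windows in the longest stretches, which hold 45.1% of desert sequence, were left out for their lack of peaks. The share with such windows kept was not computed, so 68.8% does not describe desert sequence as a whole.

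Deserts were the sparser class on most chromosomes. Desert density lay below that of gene intervals on 17 of 21 chromosomes, and the ratio had a median of 0.631. The lowest ratio was 0.205 on chromosome 20, from 4 desert peaks in 0.403 Mb. Among chromosomes with long deserts, chromosome 13 held 168 peaks in 11.5 Mb of desert (14.6 per Mb, against 42.5 in gene intervals), chromosome 4 held 13.9 against 35.6 per Mb, and chromosome 18 held 18.0 against 41.9. The 4 chromosomes above 1 were 12 (46.8 against 40.6 per Mb), 17 (40.3 against 33.3), 19 (116 against 79.0) and 22 (79.5 against 46.3, from 23 peaks in 0.289 Mb). Chromosome 19, which carries the clusters of KRAB zinc finger genes, had the highest density in deserts and in gene intervals alike. All its desert sequence lay within 5 Mb of its longest peak-free stretch. Beyond 5 Mb of that stretch the ratio was below 1 on 18 of the 20 chromosomes that have such deserts. It was 0.332 on chromosome 12 and 0.877 on chromosome 17, and it was above 1 on chromosomes 16 (1.03) and 22 (1.68).

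**Figure D2:**
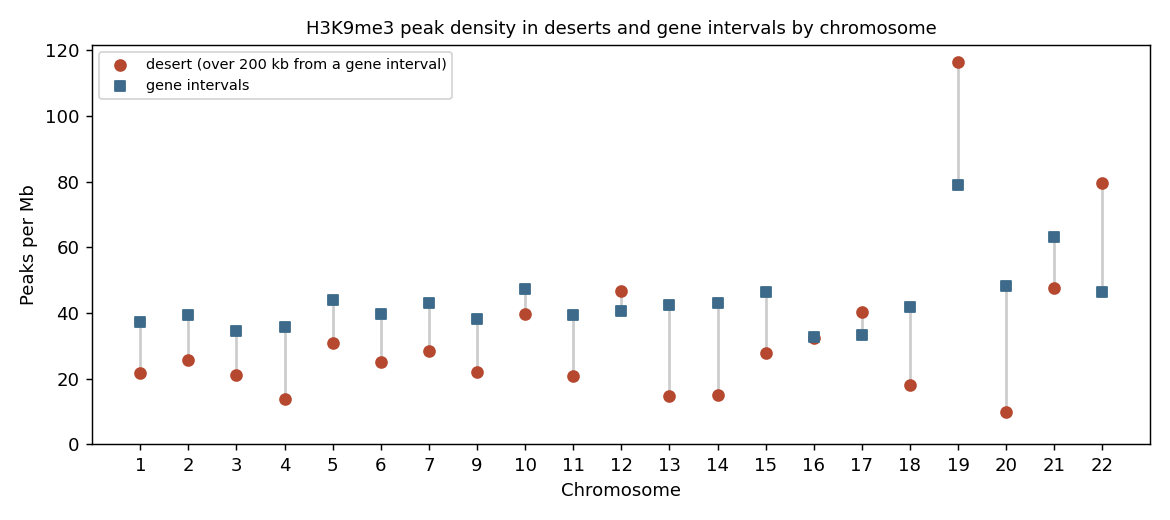
Peaks per Mb (y axis) in deserts (red circles) and in gene intervals (blue squares) of each chromosome, without its longest peak-free stretch. Deserts lie below gene intervals on 17 of 21 chromosomes, and chromosomes 12, 17, 19 and 22 are the exceptions.

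Chromosome 8, which KBM7 is known to carry in an extra copy, was outside the definition and is given for comparison. By the same rule it had 89 desert peaks in 3.06 Mb, 29.1 per Mb, beside 32.5 per Mb in its gene intervals. Its desert peaks had a median width of 1650 bp, against 2850 bp for its genic peaks, and covered 12.7% of its desert sequence. The 6 deserts of chromosome 15, part of which is also known to be duplicated in KBM7, held 27 peaks. These had a median width of 600 bp, against 1200 bp for the genic peaks of that chromosome. None of the 6 deserts lay between 60 and 90 Mb. The reads and peaks were not corrected for copy number.

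Desert peaks were narrow. Their median width was 750 bp (25th to 75th percentile 450 to 1200 bp), against 900 bp (600 to 1650 bp) for peaks overlapping gene intervals and 900 bp (600 to 1500 bp) for peaks up to 200 kb outside them. Widths come in steps of 150 bp, so the medians differ by 1 step. The order held on most chromosomes: the desert median was below the genic one on 19 of 21, equal on chromosome 12 and above on chromosome 22. The difference was larger among wide peaks. Of all peaks on the 21 chromosomes 9.12% were 3 kb or wider; in deserts 91 of 2767 were (3.29%, exact binomial interval 2.66 to 4.02%), against 10.6% in gene intervals and 7.93% up to 200 kb outside. A wide peak touches a gene interval more easily than a narrow one, and how much this enters the shares of the 3 classes was not tested. The share of peaks of 600 bp or less was 44.2% in deserts and 30.4% in gene intervals.

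Peaks in deserts also stood farther apart. The median gap from a desert peak to the nearest other peak was 3300 bp, against 1350 bp for peaks in gene intervals. Another peak lay within 10 kb of 65.3% of desert peaks and of 80.6% of genic peaks. Joining desert peaks less than 10 kb apart gave 1471 runs, of which 977 (66.4%) were single peaks. There were 84 runs of 5 or more peaks, which together held 773 desert peaks, and the longest run had 49. Of these runs 67, with 498 peaks, lay in deserts without a peak-free stretch of 1 Mb or more. Most desert runs were thus single peaks, but these made up only 977 of the 2767 desert peaks. The other desert peaks lay in longer runs. Runs were not counted for genic peaks, and the widths of single peaks and of peaks in longer runs were not compared.

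Desert peaks were most densely packed beside the long peak-free stretches. On the 17 chromosomes with a longest stretch over 2 Mb, desert sequence within 1 Mb of it held 400 peaks in 5.56 Mb, 72.0 per Mb, with 12.7% of it in peaks. These are 14.5% of all desert peaks on 4.97% of the desert sequence outside the longest stretches. Desert density was 45.4 per Mb from 1 to 2 Mb away, 30.9 from 2 to 5 Mb, 18.1 from 5 to 20 Mb and 25.1 farther out. Gene intervals at the same distances held 45.8, 43.0, 38.3, 38.3 and 41.5 peaks per Mb. Pooled over these chromosomes, deserts were therefore the denser class within 1 Mb of the stretch and the sparser one beyond 2 Mb. Most of the 96 desert peaks from 1 to 2 Mb away lay in 1 desert of chromosome 7. That desert held 89 peaks, 24 of them within 1 Mb and the others from 1 to 2 Mb. The density of this class without that desert was not computed. The first base beyond a stretch is a peak by construction, which adds at most 1 peak per side.

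**Figure D3:**
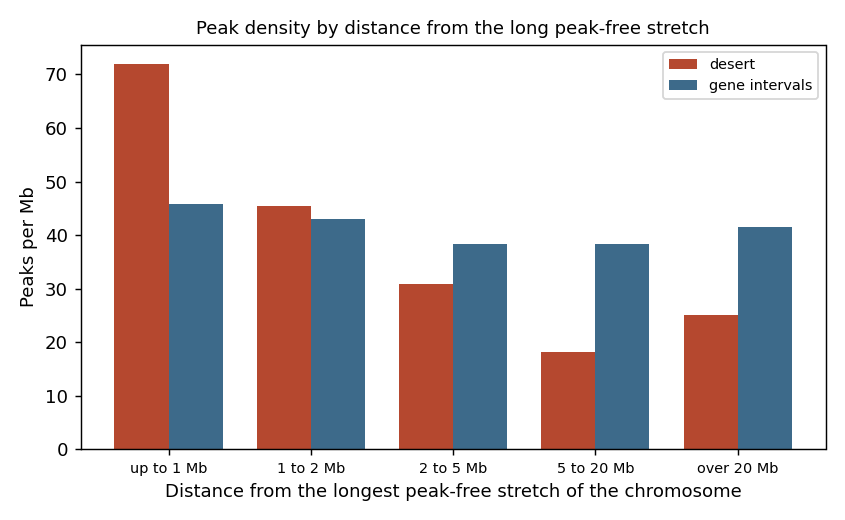
Peaks per Mb in deserts (red) and in gene intervals (blue) by distance from the longest peak-free stretch, on the 17 chromosomes where it exceeds 2 Mb. Deserts hold 72.0 peaks per Mb within 1 Mb and 18.1 from 5 to 20 Mb, whereas gene intervals stay between 38.3 and 45.8.

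The dense zones differed between chromosomes. Chromosome 12 held 98 desert peaks in 0.655 Mb within 1 Mb of its stretch, 26.3% of it covered. Chromosome 19 held 77 in 0.599 Mb (25.6% covered), chromosome 11 held 54 in 0.752 Mb (7.99%), and chromosome 5 held 49 in 0.321 Mb (28.2%). These 4 chromosomes account for 278 of the 400 peaks. Chromosome 10 held 38 in 0.349 Mb (17.1%) and chromosome 17 held 20 in 0.161 Mb (17.02%). Chromosomes 6 and 21 held 11 peaks each, 76.2 and 144 per Mb. Other chromosomes lay below the pooled 45.8 per Mb of gene intervals at this distance. Chromosome 7, with the most such desert sequence, held 24 in 1.25 Mb (19.1 per Mb). Its peaks included one of 26700 bp and covered 8.07% of that sequence, against 6.36% in gene intervals at this distance. Chromosome 3 held 13 in 0.521 Mb (24.9 per Mb). Chromosome 2 was sparse, with 5 peaks in 0.511 Mb (0.907% covered), and chromosomes 9 and 18 had 0 desert peaks in 0.148 and 0.0681 Mb. On chromosomes 1, 4, 16 and 20 no desert sequence remained within 1 Mb outside the stretch, so no density could be given.

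Width split along the same line, here counted on all 21 chromosomes. On chromosomes 13, 14, 15 and 22 the longest stretch was only 0.521 to 1.00 Mb long. The 586 desert peaks within 5 Mb of the longest stretch had a median of 900 bp, and 9.56% (7.30 to 12.2%) were 3 kb or wider. The 2181 farther away had a median of 750 bp, and 35 of them, 1.60% (1.12 to 2.22%), were 3 kb or wider. All 6 desert peaks of 10 kb or more, and 19 of the 22 of 5 kb or more, lay within 5 Mb. The 9.56% was close to the 10.6% of gene intervals but was not spread over the 5 Mb. Of the 56 desert peaks of 3 kb or wider within 5 Mb, 54 were among the 400 peaks within 1 Mb. Narrow peaks were found on both sides of the 5 Mb limit: 35.2% of those within it and 46.6% of those farther away were 600 bp or less. Within 1 Mb the median was 1200 bp on chromosome 5, 1125 bp on 7 and 17, 975 bp on 11 and 900 bp on 12. It was 750 bp on chromosomes 3, 6, 10 and 19, 600 bp on 21 and 450 bp on 2.

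**Figure D4:**
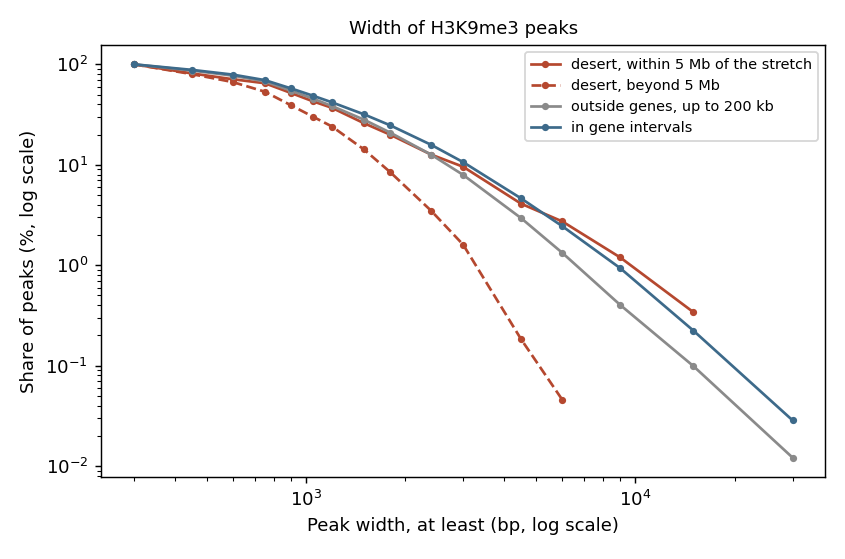
Share of peaks (y axis, percent, log scale) at least as wide as the value on the x axis (bp, log scale), for desert peaks within (solid red) and beyond (dashed red) 5 Mb of the longest peak-free stretch, peaks up to 200 kb outside gene intervals (grey) and peaks in gene intervals (blue). At 3 kb the shares are 9.56, 1.60, 7.93 and 10.6%.

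The 3 widest desert peaks lay close together on chromosome 7, in the desert between the KRAB zinc finger gene ZNF716 and a U6 small nuclear RNA interval. They spanned 26700 bp at chr7:61867651-61894350, 23700 bp at chr7:61779301-61803000 and 14400 bp at chr7:61902901-61917300 and lay 577491, 668841 and 554541 bp from the nearest gene interval. The fourth spanned 12300 bp at chr5:46228501-46240800, between CTD-2013M15.1 and EMB, which encodes the cell adhesion glycoprotein embigin. The fifth spanned 11850 bp at chr10:42354601-42366450, between RP11-453N3.2 and CCNYL2, a cyclin Y-like pseudogene, and began at the first base beyond the peak-free stretch. All 5 are intergenic by the deposited gene table.

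The 17 longest deserts were those with a long peak-free stretch, and they differed in what lay at their edges. The longest ran over 21.2 Mb of chromosome 1 (121322323 to 142553292) between AL592494.1 and AL583842.1, and the next over 18.2 Mb of chromosome 9 (47314323 to 65467782) next to AL953854.2. The third spanned 11.5 Mb of chromosome 16 (35136454 to 46590000). None of these 3 held a desert peak, and the 2 intervals beside the chromosome 9 desert had 0 reads. Of the 17, 7 held 0 desert peaks. The other 4 of these were on chromosomes 4 (next to DCUN1D4), 18, 20 (next to RP3-410C9.1) and 21 (next to TPTE). Counted up to the gene intervals, the deserts on chromosomes 1, 9 and 16 held 12, 0 and 9 peaks. Those on chromosomes 4, 18, 20 and 21 held 7, 1, 5 and 4.

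The remaining deserts of the 10 longest all held peaks. The chromosome 7 desert of 4.94 Mb (57533266 to 62471840) held 89 peaks and the chromosome 12 desert of 4.16 Mb (34372612 to 38531447, between AC140847.1 and AC079460.1) held 98, the most of any desert. On chromosome 19 the desert of 3.97 Mb (24312644 to 28281401) between the zinc finger gene ZNF254 and AC006504.2 held 47 peaks. Those on chromosomes 10 and 5, described above, were 3.89 and 3.80 Mb long with 38 and 49 peaks. On chromosome 17 a desert of 3.59 Mb next to WSB1, which encodes a substrate receptor of a ubiquitin ligase, held 20 peaks, and on chromosome 6 a desert of 3.57 Mb between RP11-143A22.1 and AL356131.1 held 11. Among deserts with 1 Mb or more of desert sequence, peak cover over that whole sequence, peak-free stretch included, was highest on chromosomes 12 (4.59%), 7 (3.85%) and 5 (2.66%), followed by 1 on chromosome 3 (2.39%, between RN5S144 and AC055758.1) and that on chromosome 19 (1.82%). The chromosome 3 desert has no such stretch, and the order depends on counting the stretches: within 1 Mb outside them the shares given above were highest on chromosomes 5, 12 and 19.

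Gene scores beside these deserts, in reads per kb of the interval, were uneven. ZNF716 scored 77.1 (95% Poisson interval 73.6 to 80.8) and ZNF254 scored 67.3 (65.6 to 68.9), and both overlapped a peak. TPTE, a testis phosphatase gene, scored 60.6 (59.3 to 62.0) with a peak, although its desert had none farther than 200 kb from a gene interval. EMB scored 22.4 (21.1 to 23.8), WSB1 12.2 (10.7 to 13.8) and DCUN1D4 21.5 (20.5 to 22.6), none with a peak. CCNYL2 scored 44.9 (43.3 to 46.6). TPTE and CCNYL2 have related copies elsewhere, between which reads may be split. AC140847.1, an interval of 0.298 kb, scored 977 (868 to 1095) without a peak. Short intervals gave high scores throughout: over intervals under 1 kb on these chromosomes the median was 117, against 37.3 over those of 1 kb or more.

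The other 429 deserts were 0.260 to 2.43 Mb long and held 2389 of the desert peaks, 22.01 per Mb. The median such desert held 3 peaks, 82 (19.1%) held 0, and the highest number was 43. Pooled by length class, longer deserts were sparser. Longer deserts also reach farther from gene intervals, and length was not separated from the decline with distance given above. The 152 with up to 0.1 Mb of desert sequence held 43.5 peaks per Mb, above the 41.2 of gene intervals. Those with 0.1 to 0.3 Mb held 28.1 peaks per Mb, those with 0.3 to 0.6 Mb 20.1, those with 0.6 to 1 Mb 18.4 and the 15 with more than 1 Mb 12.2. The median densities of single deserts, in the same order, were 21.1, 17.2, 14.0, 15.9 and 10.8, so they did not fall at every step. In those 15, peaks covered 0.955% of the desert sequence, and single deserts ran from 3.70 to 24.4 peaks per Mb.

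Of the 10 longest of these, a set chosen after the data were seen, 4 lay on chromosome 13. The longest covered 2.43 Mb of chromosome 13 (54707002 to 57133757) between the long noncoding RNA gene LINC00458 and a snoU13 interval. It held 19 peaks, 9.37 per Mb, and the widest was 1500 bp. The other 3 on that chromosome, at 104080036 to 106111403, 81876543 to 83872205 and 64650145 to 66438304, held 16, 21 and 15 peaks. None of the 4 had a peak wider than 2100 bp. Chromosome 16 held 2 deserts beside the cadherin genes CDH11 and CDH8, which encode cell adhesion proteins of mesenchyme and of neurons. The desert next to CDH11 (62859953 to 64977655) held 13 peaks, 7.57 per Mb, and the desert next to CDH8 (59765345 to 61685916) held 25, 16.4 per Mb.

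The remaining 4 were on chromosomes 18, 3, 10 and 2. A desert of 1.96 Mb next to CBLN2, which encodes the synaptic organizer cerebellin 2, held 13 peaks, 8.33 per Mb. That on chromosome 3 (143905863 to 145615073) was the densest of the 10, with 32 peaks, 24.4 per Mb, and 2.39% covered. The desert next to IPMK, an inositol phosphate kinase gene, on chromosome 10 held 18 and that next to the noncoding RNA gene PCGEM1 on chromosome 2 held 21. Across the 10, the widest peak was 2550 bp and the median widths were 600 to 900 bp, so none of these 10 held a single peak of 3 kb or more. Neighbouring peaks were not joined for this. Of all desert peaks 12.9% directly touched another peak, the same share as of genic peaks (12.9%). In these 10 deserts the peak farthest from any gene interval, of 450 bp at chr13:56008951-56009400, lay 1124358 bp from the nearest interval.

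**Figure D5:**
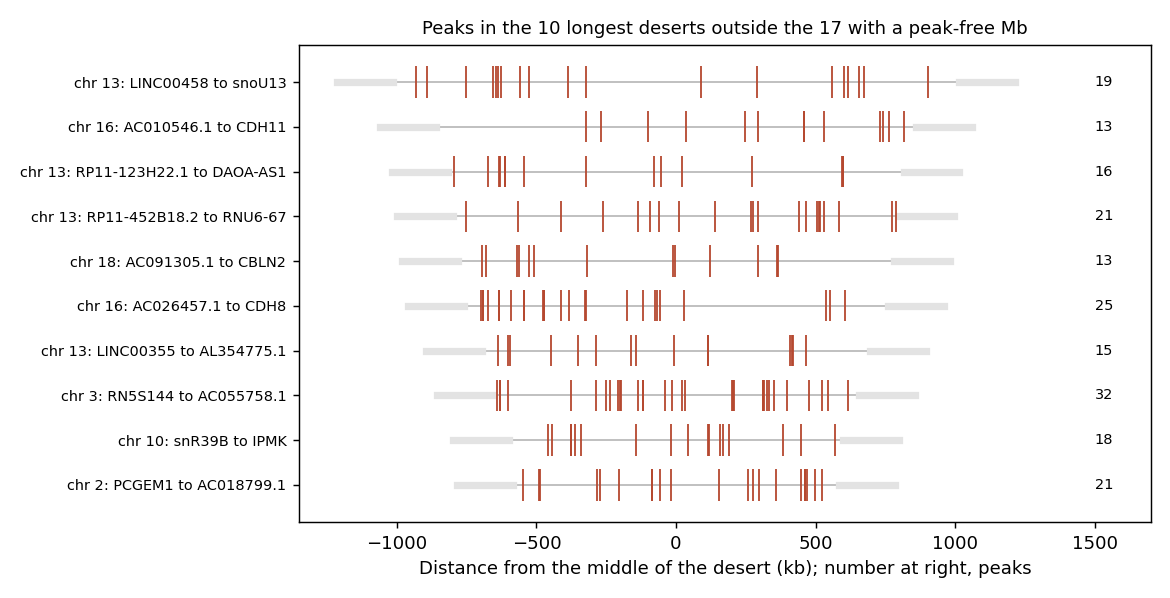
Desert peaks (red ticks) in the 10 longest deserts outside the 17 with a peak-free stretch of 1 Mb or more, by distance from the middle of the desert in kb. The thick grey ends are the 200 kb next to the gene intervals, where peaks are not drawn. The number at right counts the desert peaks (13 to 32). Single peaks and small groups are scattered over each desert.

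Among deserts farther than 5 Mb from the longest peak-free stretch, the widest peaks lay in deserts under 1 Mb long. The widest was 6150 bp at chr17:5691601-5697750, between NLRP1, an inflammasome sensor gene, and WSCD1. The next was 5700 bp at chr16:54558301-54564000, between IRX3, a homeobox gene, and CRNDE, and the third 5400 bp at chr18:10164301-10169700, beyond VAPA. A peak of 4650 bp on chromosome 18 lay next to SKOR2, a transcriptional corepressor gene. Of the 5 peaks of 4350 bp at this distance, 1 lay in the same desert, 1 on chromosome 18 next to the zinc finger gene SALL3, 1 on chromosome 10 between a pair of clone-named intervals, and 2 on chromosome 22 in the desert next to C22orf34. These peaks were ranked and their neighbours looked up after the data were seen.

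Gene intervals at the edges of deserts, or standing alone between 2 deserts, offered a readout from reads rather than peaks. There were 847 such intervals, and among the 555 of 1 kb or more the median score was 41.1 reads per kb (25th to 75th percentile 32.8 to 55.2). Over all 26864 intervals of that length the median was 37.3 (21.4 to 59.5). Pooled over bases the values were 41.3 and 45.8 reads per kb. Peaks, in contrast, covered 2.91% of the edge intervals and 5.82% of all intervals. At desert edges the median read density was thus higher and the pooled one lower than over all intervals, and the share in peaks was lower. The 36 intervals standing alone between 2 deserts gave 41.0 reads per kb by the median and 2.65% in peaks. Of the 26864 intervals 42.1% overlapped a peak, and of the 555 edge intervals 320 did (57.7%). The edge intervals were longer, with a median of 31.9 kb against 18.9 kb, and longer intervals meet a peak more easily; the part of length in this share was not tested.

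Adhesion genes and developmental transcription factors were looked up at the desert edges by name, from lists built on symbol families. The first list, called neural adhesion here, takes families such as CDH, PCDH, CNTN and ROBO whole. It thus includes members not particular to neurons, such as CDH11. Of all 32755 symbols 2.30% stood at an edge, of the 17217 protein-coding symbols 1.29%, and of 141 neural adhesion genes 15 (10.6%). The list was not tested, and gene length was not matched. The 15 had a median score of 36.7, against 56.7 for the whole list and 40.3 for the protein-coding symbols at an edge. Of the 15, 11 (73.3%) overlapped a peak. Over all intervals, short ones included, 33.4% did, and over the 222 protein-coding symbols at an edge 160 did (72.1%), which is close to the share of the adhesion genes. Protocadherin PCDH15 was lowest at 30.7 (30.5 to 31.0), and the axon guidance receptor ROBO1 scored 32.7 (32.4 to 33.0). The cadherins CDH8 and CDH11 scored 36.7 (36.1 to 37.3) and 43.4 (42.4 to 44.4). SLITRK1, a synaptic adhesion gene that stands between 2 deserts of chromosome 13, was highest at 74.6 (67.4 to 82.5). PCDH7, CNTN6, CNTN3 and PCDH20 had no peak.

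The transcription factors at desert edges scored higher. Of 162 on the list 8 stood at an edge (4.94%), with a median of 73.2 against 46.2 for the list, and 7 overlapped a peak (87.5%, beside the 72.1% of protein-coding edge symbols). FOXL1 scored 98.5 (87.9 to 110), PAX3, which specifies neural crest and muscle, 79.3 (77.6 to 81.1), and TBX15 77.1 (75.5 to 78.8). SALL1, TSHZ3, SALL3 and TBX18 scored 75.7, 70.6, 65.3 and 51.8. IRX3 was the exception at 12.4 (8.99 to 16.7), with no peak in its own interval, although the desert beside it held 27 peaks. Above the median score of intervals of 1 kb or more, 37.3, lay 6 of the 15 adhesion genes, 7 of the 8 transcription factors and 127 of the 222 protein-coding edge symbols. Above the median of all intervals, 45.7, which short intervals raise, lay 1 of the 15, 7 of the 8 and 83 of the 222 protein-coding edge symbols.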

How the data were processed

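Chromatin of KBM7 cells was precipitated for H3K9me3 and sequenced. Per the submitters' processing notes, Bowtie2, MACS and the build hg19 were involved; versions and roles are not stated there. The authors deposited raw read counts per gene interval, the interval length, a score that is the signal in reads per kb, not scaled to depth, and peak coordinates; read filters and any use of IgG in peak calling are not stated in those sources.

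A peak belonged to a desert when its nearest edge was farther than 200 kb from every gene interval. It was genic with an overlap of 1 bp or more. Chromosomes ran from the first to the last coordinate in the data. Gene types came from a GRCh38 table by symbol (20393 of 32755 symbols matched) and no coordinate of it was used. Densities were checked on simulated data. Binomial (Clopper-Pearson) and Poisson intervals are exact at 95% and cover counting error of reads or peaks only. With 1 library no p-value was computed. Named genes flank the 10 longest deserts, the 5 widest desert peaks and the 5 deserts of highest and lowest cover (7 tied at 0); further ones are said to be chosen later. Of the genes that this rule names, 1 is not reported here. Members, lists and rules were chosen with earlier results of these data known. Computation used scipy 1.17.1, pandas 2.3.3 and numpy 2.4.6 under Python 3.11.15, and figures matplotlib 3.10.9.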

Additional observations from a re-analysis of the deposited data

How the results depend on the processing

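Under 12 alternatives deserts kept a lower density and cover of peaks than gene intervals in every setting, but the size of the difference depended on the definition. With a limit of 100 kb there were 8854 desert peaks, a density ratio of 0.594 and a cover ratio of 0.462. With 500 kb these were 228, 0.0544 and 0.0476. With protein-coding intervals only they were 15799, 0.674 and 0.495. Without the longest peak-free stretch of each chromosome the ratios were 0.600 and 0.439, also without the 5 Mb around it 0.526 and 0.338, and without the 17 deserts with 1 Mb or more free of peaks, a setting added after the data were seen, 0.535 and 0.343. Peaks of 600 bp or more gave 0.282 and 0.226, with a median width of 900 bp, since narrow peaks are removed. Merging peaks closer than 1 kb gave a density ratio of 0.347. Other settings (peak midpoints, long gene intervals, chromosomes 15 or 19 left out) stayed within the counting interval, and the median width was 750 bp in all but the setting named. Leaving out runs of unknown bases was not run, because no genome of the build was used here. The peak list has no heights, so a minimum width took the place of a stricter threshold. No paired analysis was possible because each group has 1 library and only the H3K9me3 library was analysed.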
